A study of Mus musculus with 8 samples.

Results

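The lysosomal hydrolases, lysosomal membrane proteins and subunits of the vacuolar proton pump were followed in peritoneal macrophages exposed to apoptotic fibroblasts. The set was a list of 51 gene symbols, 51 of which were found among the 47643 genes of the expression tables, and 51 passed the filter of a mean of at least 10 normalized counts. mRNA of macrophages from C57 BL/6 mice was measured by QuantSeq, which counts reads near the 3′ end of transcripts, in 8 libraries. In 4 libraries, called MΦ+FV-Casp8+Dimerizer by the study and co-cultured below, the macrophages had shared a transwell chamber, with 5 µm pores, with NIH 3T3 FV-hCasp8 cells before and during 48 h with 10 nM of the dimerizer B/B Homodimerizer. In the other 4, called MΦ+Dimerizer and dimerizer-only below, the macrophages received the dimerizer at the same dose and time without fibroblasts. NIH 3T3 FV-hCasp8 cells are mouse fibroblasts that carry a human caspase-8 whose death effector domains were replaced by a dimerizer-binding domain, so that the dimerizer starts apoptosis in them. They came from selected single clones. The macrophages were the peritoneal cells that stayed attached after washing, and the study describes replicates as individual animals. Their age was not given in the sources. Macrophages kept with living fibroblasts were not analysed here, so the presence of fibroblasts and their death cannot be told apart.

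Lysosomes are the acidic compartments in which macrophages digest what they engulf. The V-ATPase pumps protons into them: its cytosolic V1 domain hydrolyses ATP and turns a rotor, and its membrane-bound V0 domain carries the protons across. Soluble hydrolases cut sugars, glycosaminoglycans, lipids, proteins and nucleic acids at low pH, and small cofactors such as the saposins lift lipids out of membranes for them. Membrane glycoproteins line the compartment, and transporters export the products. Many of these genes carry an E-box motif near their start that is bound by the MiT/TFE transcription factors, of which TFEB is the best known.

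After co-culture with apoptotic cells, the lysosomal genes did not move as one group: 9 of the 51 rose, 11 fell, and 31 gave no call. Among lipid-handling genes the GM2 activator Gm2a, the saposin precursor Psap and the acid lipase Lipa fell, while the sulfatases Arsb and Sgsh, the thioesterase Ppt1 and the protease Lgmn rose. Among all 12029 genes tested by limma, with p-values adjusted by the Benjamini-Hochberg method at a threshold of 0.05, 15% rose, 13.7% fell and 28.7% were called in either direction. Of the 51 genes, 17.6%, 21.6% and 39.2% were. The median log2 fold change of the 51, co-cultured over dimerizer-only, was 0.003, beside 0.007 over all tested genes, and 26 of the 51 had a positive sign. The shifts were small. Called log2 fold changes had a size of 0.23 to 1.01, 15 of the 20 called genes changed by less than 1.5-fold, and Gm2a alone reached 2-fold, as 7.66% of all tested genes did. The values of both groups did not overlap in 21 of the 51 genes, beside 29.4% of all tested genes, and 18 of these 21 were also called. The differences are between whole cultures, so fewer cells of a type and less RNA per cell cannot be told apart.

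**Figure D1:**
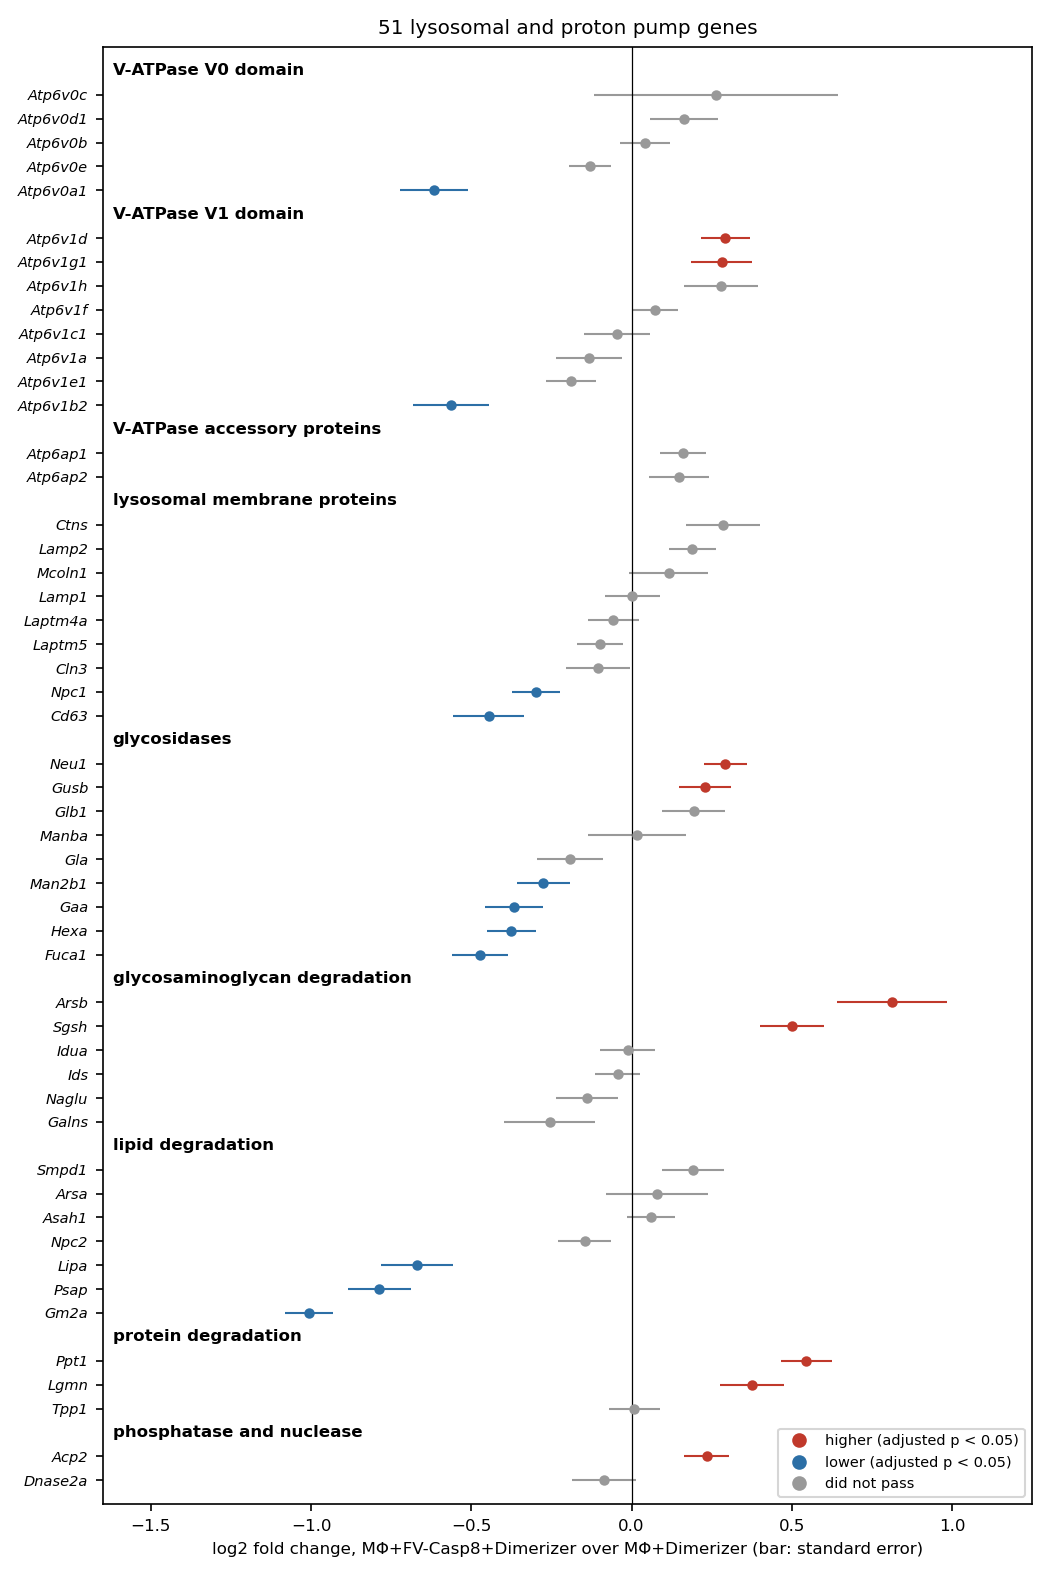
Log2 fold change of the 51 genes, co-cultured over dimerizer-only macrophages, on the horizontal axis, with the genes grouped by role down the page. Points are limma estimates and bars their standard errors. Points right of 0 are higher after co-culture. 9 genes are marked higher, 11 lower and 31 did not pass. The lipid genes Gm2a, Psap and Lipa reach furthest to the left, and Arsb furthest to the right.

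The promoters were compared for the motif of the MiT/TFE factors. RefSeq promoters of build GRCm38.p6, from 250 bases before to 50 bases after the annotated start, were found for 44 of the 51 genes. The E-box CACGTG, searched on both strands, stood in 12 of the 44, or 27.3%, beside 1957 of 27025 promoters in the whole table, or 7.24%. The longer form TCACGTG, which contains the first and was also searched on both strands, stood in the same 12, beside 1037 of all promoters, or 3.84%. The 12 were those of Arsa, Atp6v0b, Atp6v0d1, Atp6v0e, Atp6v1a, Gaa, Gla, Glb1, Lamp1, Mcoln1, Naglu and Sgsh. Of the genes with a promoter, 1 of 8 that were higher, 1 of 9 that were lower and 10 of 27 that did not pass held the motif. A match describes the letters only. The promoters of Sgsh and Gaa are shown because they are the called genes that held it, 1 in each direction, and the motif is in capitals. The Sgsh window is chr11:119355461-119355760 on the minus strand, where the motif reads CACGTGA and begins 29 bases before the start. The Gaa window is chr11:119267713-119268012 on the plus strand, with TCACGTG beginning 141 bases before the start.
Sgsh promoter: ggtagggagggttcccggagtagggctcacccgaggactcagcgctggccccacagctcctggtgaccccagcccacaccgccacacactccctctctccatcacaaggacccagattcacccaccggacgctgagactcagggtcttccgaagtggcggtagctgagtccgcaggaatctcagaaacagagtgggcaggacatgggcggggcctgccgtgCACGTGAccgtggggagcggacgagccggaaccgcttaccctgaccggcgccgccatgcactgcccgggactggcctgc
Gaa promoter: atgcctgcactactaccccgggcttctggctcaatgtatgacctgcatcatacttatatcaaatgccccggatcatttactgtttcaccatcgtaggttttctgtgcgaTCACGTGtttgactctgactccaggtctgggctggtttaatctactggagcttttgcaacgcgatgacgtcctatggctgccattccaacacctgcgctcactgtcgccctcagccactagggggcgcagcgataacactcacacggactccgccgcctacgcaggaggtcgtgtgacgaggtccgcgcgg

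Genes of lipid degradation gave the widest shifts downward. Of 7, 3 fell (42.9%), 0 rose and 4 did not pass, with a median log2 fold change of -0.15. Over all tested genes 13.7% fell and 15% rose. Gm2a (chr11:55098115-55113029, GRCm38) encodes the GM2 activator, which presents the ganglioside GM2 to β-hexosaminidase. It was counted at 1022, 885, 1029.5 and 1060 normalized counts in co-cultured libraries, against 1909, 1993, 1968 and 2148 in dimerizer-only libraries. Every co-cultured library lay far below the dimerizer-only level, outside the spread of either group. The fall was 2.01-fold (log2 fold change -1.01 ± 0.08, SE, limma adjusted p = 1.16e-06). Psap (chr10:60277627-60302597) encodes prosaposin, the precursor of the saposins that assist sphingolipid hydrolases. It gave 20842, 22460, 18125 and 19041 normalized counts in co-cultured libraries, against 33610, 32996, 36178 and 35688 in dimerizer-only libraries. The gap between the groups was wider than the range within either, and Psap was 1.73-fold lower (log2 fold change -0.79 ± 0.10, SE, limma adjusted p = 5.49e-05). Lipa (chr19:34492318-34527474), the acid lipase that releases cholesterol and fatty acids from engulfed lipoproteins and cell debris, was counted at 10083, 12387, 9119 and 8777 normalized counts in co-cultured libraries, against 15761, 18014, 15775 and 14297 in dimerizer-only libraries. Replicate 2 was the highest of its group in both, and the groups stayed apart. Lipa was 1.59-fold lower (log2 fold change -0.67 ± 0.11, SE, limma adjusted p = 0.00065). Npc2, which hands cholesterol to Npc1, had a log2 fold change of -0.15 (limma adjusted p = 0.207). The acid sphingomyelinase gene Smpd1 had a log2 fold change of 0.19 (limma adjusted p = 0.163), the acid ceramidase gene Asah1 of 0.06 (limma adjusted p = 0.588) and the sulfatide sulfatase gene Arsa of 0.08 (limma adjusted p = 0.756), so the enzymes of sphingomyelin, ceramide and sulfatide did not pass the test.

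The glycosidases, which trim sugars from glycoproteins, glycolipids and glycogen, moved in both directions. Of 9, 4 fell (44.4%), 2 rose (22.2%) and 3 did not pass, beside 13.7% lower and 15% higher among all tested genes. Fuca1 (chr4:135920735-135940311), the α-fucosidase, was counted at 1122, 1204, 1054 and 1031 normalized counts in co-cultured libraries, against 1435, 1811, 1449 and 1452 in dimerizer-only libraries. The highest co-cultured value stayed below the lowest dimerizer-only value, and Fuca1 was 1.39-fold lower (log2 fold change -0.47 ± 0.09, SE, limma adjusted p = 0.00129). Hexa (chr9:59539540-59565109), the α subunit of β-hexosaminidase A, gave 4245, 4119.8, 3665 and 3746 normalized counts in co-cultured libraries, against 5394, 5313, 4719 and 5023 in dimerizer-only libraries. The groups were separate and Hexa was lower by 22.9% (log2 fold change -0.38 ± 0.08, SE, limma adjusted p = 0.00248). The gene Tmem202 overlaps Hexa on the other strand, had a mean of 39.6 normalized counts and was lower with a log2 fold change of -1.38 (limma adjusted p = 0.00535). Gaa (chr11:119267887-119285454), the acid α-glucosidase that digests glycogen and whose promoter is printed above, was counted at 277, 296, 288 and 279 normalized counts in co-cultured libraries, against 393, 341, 332 and 411 in dimerizer-only libraries. The co-cultured libraries lay close together below all dimerizer-only ones, and Gaa was 1.29-fold lower (log2 fold change -0.37 ± 0.09, SE, limma adjusted p = 0.00841). Man2b1 (chr8:85083270-85098282), the α-mannosidase, gave 5899.9, 5146, 5001 and 5777 normalized counts in co-cultured libraries, against 7189.5, 6629.7, 5991 and 6587 in dimerizer-only libraries. The nearest libraries of the groups differed little, and the call of 1.21-fold lower (log2 fold change -0.28 ± 0.08, SE, limma adjusted p = 0.0246) was lost in 5 of 17 alternatives, at adjusted p between 0.0501 and 0.0879, among them those without co-cultured replicate 2 (0.0592), co-cultured replicate 3 (0.0742) or dimerizer-only replicate 1 (0.0879).

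Neu1 (chr17:34931253-34935953), the sialidase that removes sialic acids, went the other way. It was counted at 859, 922, 866 and 844 normalized counts in co-cultured libraries, against 728, 740.4, 687 and 694 in dimerizer-only libraries. No dimerizer-only library reached the co-cultured range, and Neu1 was 1.22-fold higher (log2 fold change 0.29 ± 0.07, SE, limma adjusted p = 0.00548). Gusb, the β-glucuronidase, averaged 2526 ± 189.6 normalized counts in co-cultured and 2155 ± 175 in dimerizer-only libraries (SD, n = 4 each), with overlapping groups. Its log2 fold change of 0.23 ± 0.08 (SE) passed narrowly (limma adjusted p = 0.0475). The limma call was lost in 9 of 17 alternatives, including those without co-cultured replicate 1 (adjusted p = 0.089), 2 (0.117) or 3 (0.0754) and without dimerizer-only replicate 1 (0.0886), 3 (0.0815) or 4 (0.138). The genes that did not pass, by log2 fold change, were the α-galactosidase Gla at -0.19 (limma adjusted p = 0.187), the β-galactosidase Glb1 at 0.19 (limma adjusted p = 0.158) and the β-mannosidase Manba at 0.02 (limma adjusted p = 0.953). Glb1 was called in 1 of 17 alternatives.

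Genes of glycosaminoglycan degradation held the rise of widest size. Of 6, 2 rose (33.3%), 0 fell and 4 did not pass, beside 15% higher and 13.7% lower among all tested genes. Arsb (chr13:93771630-93943016), the sulfatase of dermatan and chondroitin sulfate, was counted at 90.7, 135, 74.3 and 99.8 normalized counts in co-cultured libraries, against 56.3, 55.5, 53.7 and 55.0 in dimerizer-only libraries. The dimerizer-only libraries were nearly alike, the co-cultured ones spread widely, and all of these were higher. The rise was 1.76-fold (log2 fold change 0.81 ± 0.17, SE, limma adjusted p = 0.00306). Sgsh (chr11:119343425-119355536), the heparan sulfatase whose promoter is printed above, gave 369.8, 418, 328 and 383 normalized counts in co-cultured libraries, against 265, 266, 232 and 294 in dimerizer-only libraries. The groups did not overlap and Sgsh was 1.41-fold higher (log2 fold change 0.50 ± 0.10, SE, limma adjusted p = 0.00217). Ids, the iduronate sulfatase, was counted at 848, 777, 825 and 857 normalized counts in co-cultured libraries, against 807, 831, 916 and 855 in dimerizer-only libraries. These values were interleaved and its log2 fold change was -0.04 (limma adjusted p = 0.697). By log2 fold change, the iduronidase Idua at -0.01 (limma adjusted p = 0.936), the N-acetylglucosaminidase Naglu at -0.14 (limma adjusted p = 0.312) and the galactosamine sulfatase Galns at -0.26 (limma adjusted p = 0.207) did not pass either.

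Among the 3 genes of protein degradation, 2 rose and 1 did not pass, beside 15% higher and 13.7% lower among all tested genes. Ppt1 (chr4:122836242-122859175), the thioesterase that removes palmitate from proteins, was counted at 1429.9, 1306, 1285 and 1287 normalized counts in co-cultured libraries, against 929, 789, 934 and 991 in dimerizer-only libraries. All co-cultured libraries were above all dimerizer-only ones, with replicate 1 standing highest, and the rise was 1.46-fold (log2 fold change 0.55 ± 0.08, SE, limma adjusted p = 0.000229). Cap1, on the other strand and overlapping Ppt1, had a mean of 1619 normalized counts and a log2 fold change of 0.15 (limma adjusted p = 0.207). Lgmn (chr12:102394084-102439813), the asparaginyl endopeptidase legumain, gave 10476, 9310.4, 7886 and 8514 normalized counts in co-cultured libraries, against 7734, 6844, 6183 and 7063 in dimerizer-only libraries. The lowest co-cultured library was just above the highest dimerizer-only library, and Lgmn was higher by 29.7% (log2 fold change 0.38 ± 0.10, SE, limma adjusted p = 0.0123). Tpp1, the tripeptidyl peptidase, averaged 4272 ± 354 normalized counts in co-cultured and 4242 ± 275 in dimerizer-only libraries (SD, n = 4 each), with a change of 0.01 (limma adjusted p = 0.95) on the log2 scale. Acp2 (chr2:91202885-91214098), the lysosomal acid phosphatase, was counted at 1572, 1783, 1671 and 1607 normalized counts in co-cultured libraries, against 1437, 1415, 1479.6 and 1306 in dimerizer-only libraries. The groups did not overlap, and Acp2 was 1.18-fold higher (log2 fold change 0.23 ± 0.07, SE, limma adjusted p = 0.0232). The limma call was lost in 3 of 17 alternatives, without co-cultured replicate 2 (adjusted p = 0.057) or 3 (0.0514) or dimerizer-only replicate 4 (0.0705). Dnase2a, the acid nuclease that digests the DNA of engulfed cells, had a log2 fold change of -0.09 (limma adjusted p = 0.568). About 100 bases of its 3′ end are at least 97% identical to parts of 8 other genes, so its count is uncertain.

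**Figure D2:**
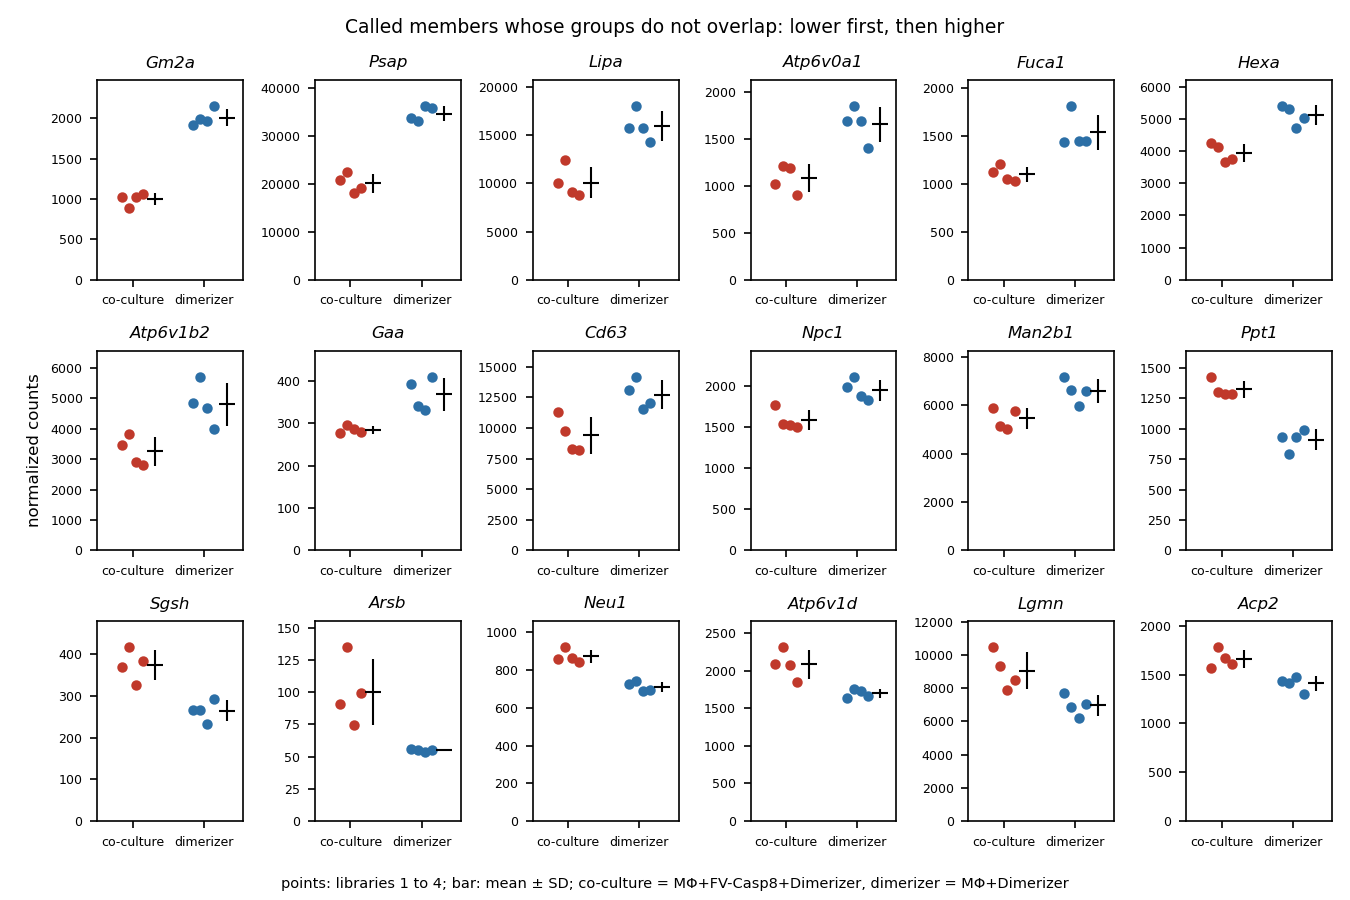
Normalized counts, on the vertical axis, of the 18 called genes whose groups do not overlap, in the 4 co-cultured libraries (left of each panel) and the 4 dimerizer-only libraries (right). Points are libraries in the order of replicates 1 to 4, the cross and bar give the mean and SD, and each axis starts at 0. The 11 lower genes come first and the 7 higher genes after them. Gm2a shows co-cultured values of 885 to 1060 and dimerizer-only values of 1909 to 2148.

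The summed level of the 27 hydrolase and cofactor genes was lower after co-culture, at 73133 to 85895 normalized counts per co-cultured library, against 100850 to 102380 per dimerizer-only library, although 7 of the 27 were higher and 7 lower. Psap and Lipa carried most of this gap. Without these 2 genes, chosen after their values were seen, the other 25 summed to 45890 to 52685 in co-cultured libraries, against 48942 to 51478 in dimerizer-only libraries, and the groups overlapped. The 15 V-ATPase genes summed to 33649 to 41266 in co-cultured libraries, against 35360 to 42933 in dimerizer-only libraries. The 9 membrane protein genes summed to 50689 to 58645 in co-cultured libraries, against 55758 to 59182 in dimerizer-only libraries. Both ranges overlapped. All 51 genes together took up 2.00% to 2.34% of the normalized counts of co-cultured libraries, against 2.35% to 2.47% in dimerizer-only libraries. These sums were not tested.

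**Figure D3:**
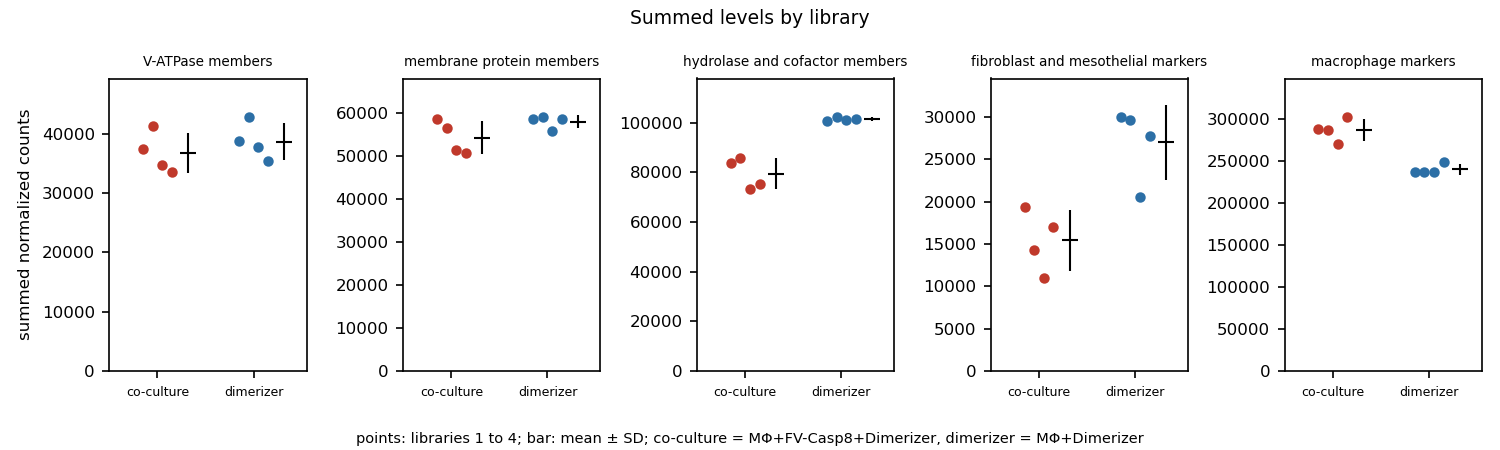
Summed normalized counts per library, on the vertical axis, for 3 classes of lysosomal genes and for markers of fibroblasts and mesothelium and of macrophages. Co-cultured libraries are on the left of each panel and dimerizer-only libraries on the right, with the mean and SD beside the points and axes that start at 0. The groups overlap for the V-ATPase and membrane protein genes and are separate for the hydrolases and cofactors and for both marker lists. Fn1 makes up the larger part of the fibroblast and mesothelial sum, and Lyz2 of the macrophage sum. Which cells made Fn1 was not tested.

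Of the 15 proton pump genes, 2 rose (13.3%), 2 fell (13.3%) and 11 did not pass, beside 15% higher and 13.7% lower among all tested genes. The median log2 fold change of the 15 was 0.07. In the V0 domain 1 of 5 fell. Atp6v0a1 (chr11:101009452-101063719), an isoform of the large a subunit beside the proton path, was counted at 1023, 1209, 1193 and 902 normalized counts in co-cultured libraries, against 1688, 1848, 1687 and 1402 in dimerizer-only libraries. Replicate 4 was the lowest of both groups, the groups did not overlap, and the fall was 1.53-fold (log2 fold change -0.62 ± 0.11, SE, limma adjusted p = 0.00075). Atp6v0e, the small e subunit, gave 2414, 2539.8, 2351 and 2293 normalized counts in co-cultured libraries, against 2656, 2723, 2475 and 2642 in dimerizer-only libraries. The groups overlapped, at a log2 fold change of -0.13 (limma adjusted p = 0.166). The d subunit gene Atp6v0d1 had a log2 fold change of 0.16 (limma adjusted p = 0.281) and the proteolipid gene Atp6v0b of 0.04 (limma adjusted p = 0.727). Atp6v0c, which encodes the proteolipid ring, had a mean of 13.2 normalized counts and a log2 fold change of 0.26 ± 0.38 (SE). Its last 400 bases are identical to a processed pseudogene, so its count is uncertain.

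In the V1 domain 2 of 8 rose, 1 fell and 5 did not pass, beside 15% higher and 13.7% lower among all tested genes. Atp6v1b2 (chr8:69088646-69113711), the nucleotide-binding B subunit, was counted at 3474, 3834, 2904 and 2797 normalized counts in co-cultured libraries, against 4862, 5714, 4667 and 3992 in dimerizer-only libraries. Both groups had a wide spread with replicate 2 highest and replicate 4 lowest, and they did not overlap. Atp6v1b2 was 1.48-fold lower (log2 fold change -0.56 ± 0.12, SE, limma adjusted p = 0.0031). Atp6v1a, the catalytic A subunit that alternates with B in the ring, gave 8886, 9503, 7723 and 7792 normalized counts in co-cultured libraries, against 9707, 10740, 8818 and 8014 in dimerizer-only libraries. Its groups overlapped and its log2 fold change was -0.13 (limma adjusted p = 0.367). Atp6v1d (chr12:78840725-78861638), the rotor subunit D, was counted at 2086, 2312, 2076 and 1851 normalized counts in co-cultured libraries, against 1631, 1757, 1732 and 1658 in dimerizer-only libraries. The co-cultured libraries were all higher, by 1.22-fold on average (log2 fold change 0.29 ± 0.08, SE, limma adjusted p = 0.0108). Atp6v1g1, a stalk subunit, averaged 411 ± 46.7 normalized counts in co-cultured and 337 ± 21.6 in dimerizer-only libraries (SD, n = 4 each), with overlapping groups and a log2 fold change of 0.28 ± 0.09 (SE). It passed narrowly (limma adjusted p = 0.0402) and lost the call in 9 of 17 alternatives, including those without co-cultured replicate 1 (adjusted p = 0.0822), 2 (0.108) or 4 (0.0586) and without dimerizer-only replicate 1 (0.0792), 2 (0.0818) or 3 (0.0943). The stalk subunit Atp6v1e1 had a log2 fold change of -0.19 (limma adjusted p = 0.0902) with groups that did not overlap, the regulatory subunit Atp6v1h of 0.28 (limma adjusted p = 0.0891), Atp6v1f of 0.07 (limma adjusted p = 0.496) and Atp6v1c1 of -0.05 (limma adjusted p = 0.78). A processed pseudogene is 99.4% identical to Atp6v1f over 156 bases of its 3′ end, so the Atp6v1f count is uncertain. Atp6v1e1 was called in 3 of 17 alternatives, and so was Atp6v1h, among them that without dimerizer-only replicate 2 (log2 fold change 0.37, limma adjusted p = 0.0214). Of the accessory proteins, Atp6ap2, also known as the prorenin receptor, gave 3533, 4293, 3287 and 3282 normalized counts in co-cultured libraries, against 3419, 3459, 3157 and 2902 in dimerizer-only libraries. These overlapped, at a log2 fold change of 0.15 (limma adjusted p = 0.27). Atp6ap1 had a log2 fold change of 0.16 (limma adjusted p = 0.116) with groups that did not overlap, and was called in 2 of 17 alternatives.

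The other V-ATPase subunit genes, mostly isoforms of restricted tissues, were 10, of which 4 reached a mean of 10. Of these 4, 3 fell, 0 rose and 1 did not pass, beside 13.7% lower and 15% higher among all tested genes. Atp6v0d2, the d isoform known from osteoclasts and macrophages, was counted at 1231, 768, 903 and 551 normalized counts in co-cultured libraries, against 4865, 4685, 4429 and 3884 in dimerizer-only libraries. The fall of 5.37-fold (log2 fold change -2.42 ± 0.18, SE, limma adjusted p = 1.1e-06) was wider than that of any of the 51 genes. Counted reads of the d2 isoform made up 46.1%, 31.8%, 43.4% and 30.8% of those of both d genes in co-cultured libraries, against 78.9%, 78.3%, 80.7% and 75.9% in dimerizer-only libraries. This share was computed after the values were seen and was not tested. Tcirg1, the a3 isoform that osteoclasts use, gave 1026, 1105, 991 and 918 normalized counts in co-cultured libraries, against 1599.5, 1797, 1700 and 1774 in dimerizer-only libraries. The groups were far apart, at 1.70-fold lower (log2 fold change -0.77 ± 0.07, SE, limma adjusted p = 8.77e-06). The a2 isoform Atp6v0a2 had a log2 fold change of -0.24 (limma adjusted p = 0.0748), and Atp6v1g2 was lower at -0.60 (limma adjusted p = 0.0413) from a mean of 34.8 normalized counts, a call lost in 9 of 17 alternatives, among them those without co-cultured replicate 1 (0.05), co-cultured replicate 2 (0.0747), co-cultured replicate 3 (0.11), dimerizer-only replicate 1 (0.0607), dimerizer-only replicate 2 (0.12) or dimerizer-only replicate 4 (0.0764), as limma adjusted p. These last 2 were named after their values were seen.

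Of the 9 membrane protein genes, 2 fell (22.2%), 0 rose and 7 did not pass, with a median log2 fold change of -0.06. Among all tested genes 13.7% fell and 15% rose. Lamp1, a main glycoprotein of the lysosomal membrane and a common marker of the compartment, was counted at 16434, 16285, 15281 and 14621 normalized counts in co-cultured libraries, against 16112, 14776, 14747 and 16899 in dimerizer-only libraries. The values were interleaved and the log2 fold change was 0.00 ± 0.09 (SE, limma adjusted p = 0.985). Cd63 (chr10:128900989-128912822), a tetraspanin of late endosomes and exosomes, gave 11323, 9775, 8299 and 8162 normalized counts in co-cultured libraries, against 13108, 14194, 11537 and 12026 in dimerizer-only libraries. The groups came close without overlapping, and Cd63 was 1.36-fold lower (log2 fold change -0.45 ± 0.11, SE, limma adjusted p = 0.00891). Its 3′ end is 99% identical to the pseudogene Cd63-ps, which had a mean of 112 normalized counts, so the split of reads between them is uncertain. Npc1, the cholesterol exporter of the lysosomal membrane, was counted at 1764, 1539.5, 1525 and 1501 normalized counts in co-cultured libraries, against 1979, 2110.2, 1870.4 and 1821 in dimerizer-only libraries. Co-cultured replicate 1 stood above the other 3 of its group and still below every dimerizer-only library. Npc1 was 1.23-fold lower (log2 fold change -0.30 ± 0.08, SE, limma adjusted p = 0.0102). Lamp2, the partner of Lamp1, had a log2 fold change of 0.19 (limma adjusted p = 0.0689) with groups that did not overlap, and the cystine exporter Ctns of 0.29 (limma adjusted p = 0.0833). Lamp2 was called in 3 of 17 alternatives and Ctns in 2, among them for Ctns that without co-cultured replicate 3 (log2 fold change 0.35, limma adjusted p = 0.0463). The calcium channel gene Mcoln1 had a log2 fold change of 0.12 (limma adjusted p = 0.526), Cln3 of -0.11 (limma adjusted p = 0.47), Laptm5, which is expressed in blood cells, of -0.10 (limma adjusted p = 0.337), and Laptm4a of -0.06 (limma adjusted p = 0.648).

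Other lysosomal genes outside the 51 were 82, of which 73 were tested. The 73 include the 4 other V-ATPase subunit genes described above and the 4 MiT/TFE factors described below. They also include 12 genes that deliver or activate lysosomal enzymes. 9 of the 73 (12.3%) rose, 25 (34.2%) fell and 39 gave no call, beside 15% and 13.7% of all tested genes, and their median log2 fold change was below 0.01 in size. Of 28 other hydrolases and cofactors 5 rose and 8 fell. The progranulin gene Grn was 1.51-fold higher (log2 fold change 0.60 ± 0.10, SE, limma adjusted p = 0.000578), and Hgsnat, the acetyltransferase of heparan sulfate breakdown, 1.54-fold higher (log2 fold change 0.63 ± 0.11, SE, limma adjusted p = 0.000784). Naaa, which hydrolyses N-acylethanolamines, was 1.60-fold lower (log2 fold change -0.67 ± 0.13, SE, limma adjusted p = 0.0013). Of 25 other membrane proteins 2 rose and 9 fell. The dipeptide exporter gene Mfsd1 was 1.65-fold higher (log2 fold change 0.73 ± 0.08, SE, limma adjusted p = 2.16e-05) and the cationic amino acid exporter gene Pqlc2 1.49-fold higher (log2 fold change 0.58 ± 0.14, SE, limma adjusted p = 0.00629). Mfsd12, which takes part in cysteine import into lysosomes and melanosomes, was 2.37-fold lower (log2 fold change -1.24 ± 0.12, SE, limma adjusted p = 9.86e-06), and the histidine and peptide transporter gene Slc15a3 1.77-fold lower (log2 fold change -0.83 ± 0.10, SE, limma adjusted p = 3.96e-05). Of 12 genes that deliver or activate lysosomal enzymes, 1 rose, 2 fell and 9 did not pass. Sumf1, which activates the sulfatases, was 1.46-fold higher (log2 fold change 0.54 ± 0.11, SE, limma adjusted p = 0.00196). The sorting receptor genes Sort1, at 1.61-fold lower (log2 fold change -0.69 ± 0.11, SE, limma adjusted p = 0.000554), and Igf2r, the large mannose 6-phosphate receptor, at 1.47-fold lower (log2 fold change -0.56 ± 0.11, SE, limma adjusted p = 0.00175), fell.

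Genes of the 51 that share a substrate, a class of enzyme or a disease were grouped after their values were seen, so their counts are descriptions. Over all tested genes 15% were higher and 13.7% lower, and these small groups were not tested against those shares. Of the 3 genes of cholesterol release and export, Lipa and Npc1 were lower and Npc2 did not pass. Of 5 sulfatase genes, Arsb and Sgsh were higher, and Arsa, Galns and Ids did not pass. Of 5 genes of heparan sulfate breakdown, Sgsh and Gusb were higher, and Naglu, Ids and Idua did not pass. Of 3 genes whose loss causes neuronal ceroid lipofuscinosis in people, Ppt1 was higher, and Tpp1 and Cln3 did not pass.

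The MiT/TFE factors, which bind the motif printed above and drive many lysosomal genes, were each called: 3 lower and 1 higher. Among all tested genes 28.7% were called in either direction, 13.7% lower and 15% higher. Tfeb was counted at 129, 131, 130.2 and 109 normalized counts in co-cultured libraries, against 311, 284, 295 and 304 in dimerizer-only libraries. The fall was 2.39-fold, with tight groups far apart (log2 fold change -1.25 ± 0.10, SE, limma adjusted p = 1.4e-06). Mitf gave 1479, 1001, 1289.9 and 1212 normalized counts in co-cultured libraries, against 2732, 2720.2, 2691 and 2158 in dimerizer-only libraries. It was 2.08-fold lower (log2 fold change -1.05 ± 0.11, SE, limma adjusted p = 1.85e-05). Tfe3 was counted at 964, 985, 996 and 1024 normalized counts in co-cultured libraries, against 1129.5, 1147, 1081 and 1148 in dimerizer-only libraries. Its groups did not overlap, but the log2 fold change of -0.18 ± 0.06 (SE) passed narrowly (limma adjusted p = 0.0448), and the call was lost in 9 of 17 alternatives, among them those without co-cultured replicate 1 (0.0933), co-cultured replicate 2 (0.0698), co-cultured replicate 3 (0.0775), co-cultured replicate 4 (0.0677), dimerizer-only replicate 1 (0.0976), dimerizer-only replicate 2 (0.0981) or dimerizer-only replicate 4 (0.0983). Tfec, a relative expressed in macrophages, went the other way, at 299.8, 233, 245 and 227 normalized counts in co-cultured libraries, against 143, 102, 174 and 199.5 in dimerizer-only libraries. It was 1.66-fold higher (log2 fold change 0.73 ± 0.18, SE, limma adjusted p = 0.00714). These are mRNA levels. The location of the proteins in the cell was not measured.

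**Figure D4:**
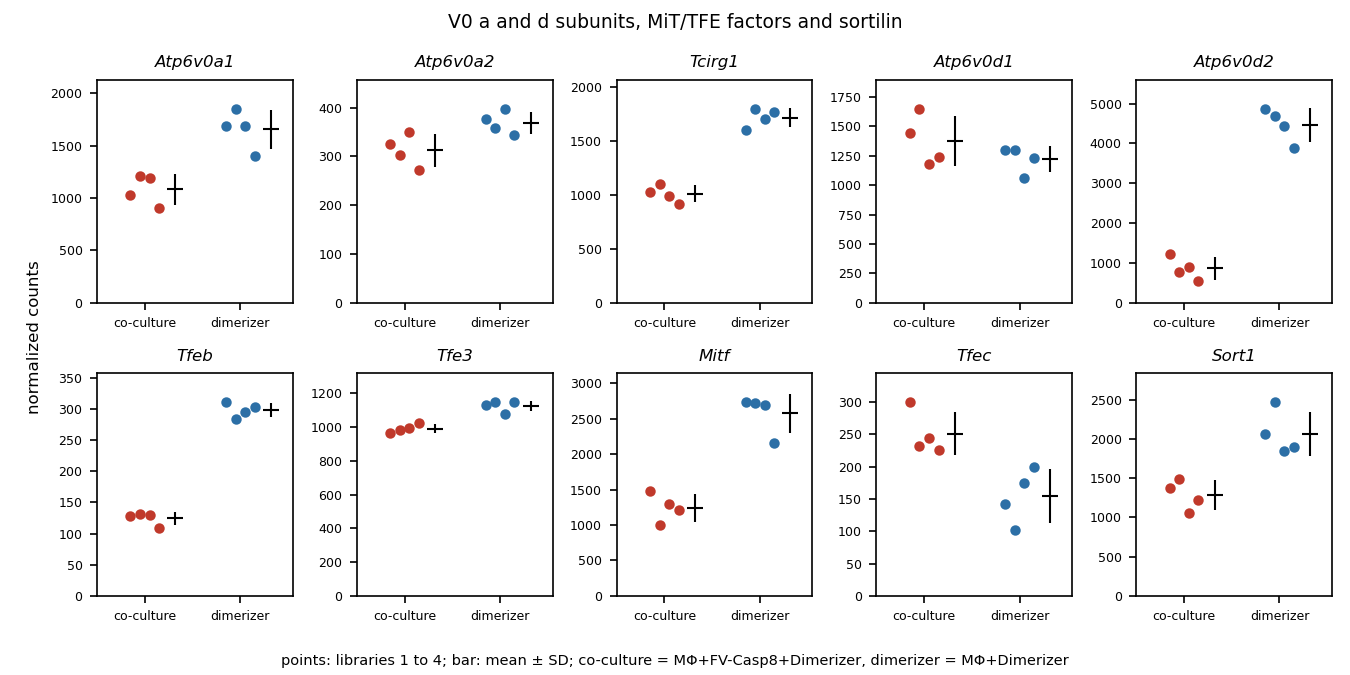
Normalized counts of the V0 a and d subunit genes, the 4 MiT/TFE factors and Sort1 on the vertical axis, in co-cultured libraries (left of each panel) and dimerizer-only libraries (right). Points are replicates 1 to 4, the cross and bar give the mean and SD, and axes start at 0. Atp6v0d2 lies at 551 to 1231 in co-cultured libraries and at 3884 to 4865 in dimerizer-only libraries, while Atp6v0d1 overlaps, and Tfec is the factor that is higher after co-culture.

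Markers of other cells moved between the groups, and their part in the results above was not tested. Among all tested genes 15% were higher and 13.7% lower. Of 22 fibroblast and mesothelial markers 18 were tested, 15 were lower and 0 higher in co-cultured libraries. Their summed level was 10999 to 19410 normalized counts in co-cultured libraries, against 20581 to 30050 in dimerizer-only libraries, and Lum, Pdgfrb, Mfap5 and Msln had means under 10. Most of this sum came from Fn1, whose groups overlapped. Its mean over all libraries was 14058 normalized counts, beside 2511 for Col1a2, and which cells made it was not tested. Fn1 averaged 11250 of a mean sum of 15422.9 in co-cultured libraries, and 16866 of 27016.2 in dimerizer-only libraries. Fn1 had a log2 fold change of -0.61 (limma adjusted p = 0.0183), a call lost in 3 of 17 alternatives, those without co-cultured replicate 2 (0.0506), co-cultured replicate 3 (0.0524) or dimerizer-only replicate 1 (0.0626), and Col1a2 of -1.27 (limma adjusted p = 4.84e-05). The libraries kept without NIH 3T3 cells held the higher summed level. Of 12 macrophage markers 6 were higher and 1 lower, with a summed level of 270612 to 303254 in co-cultured libraries, against 236959 to 249334 in dimerizer-only libraries. Most of this sum came from Lyz2, which was not called although its groups did not overlap. Lyz2 averaged 198260 of a mean sum of 287369 in co-cultured libraries, and 163680 of 240275 in dimerizer-only libraries. Lyz2 had a log2 fold change of 0.28 (limma adjusted p = 0.188) and C1qb of 0.24 (limma adjusted p = 0.0405), a call that C1qb lost in 8 of 17 alternatives, among them those without co-cultured replicate 1 (0.0781), co-cultured replicate 2 (0.0732), co-cultured replicate 4 (0.0899), dimerizer-only replicate 1 (0.113), dimerizer-only replicate 2 (0.0858) or dimerizer-only replicate 3 (0.0871). Every macrophage marker had a mean above 10.

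Among 9 tested B cell markers 2 were higher and 1 lower, with log2 fold changes for Ighm at 0.56 (limma adjusted p = 0.398) and Igkc at 0.57 (limma adjusted p = 0.408). Among 8 tested mast cell markers 2 were lower, with log2 fold changes for Cpa3 at -0.54 (limma adjusted p = 0.36) and Tpsb2 at -0.75 (limma adjusted p = 0.239). Of 5 tested dendritic cell markers 1 was higher and 2 were lower, with a log2 fold change of 0.44 (limma adjusted p = 0.258) for Cd209a and -0.99 (limma adjusted p = 0.00957) for Zbtb46. Of 3 tested neutrophil markers 2 were lower, with Mmp8 at -1.67 (limma adjusted p = 0.000767) and S100a8 at 0.27 (limma adjusted p = 0.167) on the log2 scale, while the defining Ly6g was at 0 in all 8 libraries. Both tested red cell markers were lower, with log2 fold changes for Hbb-bs at -4.90 (limma adjusted p = 0.000167) and Hba-a1 at -3.59 (limma adjusted p = 0.000464). Of 8 T and NK cell markers 6 were under a mean of 10, and the 2 tested, Cd2 and Trac, were not called. Recovered reads per library ranged from 6954153 to 11506556 in the co-cultured group, against 5904441 to 8932884 in the dimerizer-only group.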

How the data were processed

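The authors mapped QuantSeq reads to GRCm38 and deposited normalized counts per gene, a signal made of whole reads over a size factor per library (100% of values came out whole within 0.001 reads). STAR, HTSeq and DESeq2 are the tools in the submitters' processing notes. The paper names a Lexogen QuantSeq FWD UMI pipeline, whose reads keep the strand of the transcript. The annotation release and the strand setting of the counting step are not given in the sources used here, so a share of the reads of overlapping antisense genes may have been counted together. Symbols and positions came from GENCODE M21, which held 99.1% of the gene IDs.

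Groups and replicate numbers came from the labels. The groups were compared on log2(normalized count + 1) with limma 3.58.1 (trend, no replicate block) in R 4.3.3 over 12029 genes whose mean reached 10, with Benjamini-Hochberg adjustment at 0.05. Fold changes are on that scale. Every pair of libraries of a group differed beyond sampling noise (chi-square over its degrees of freedom from 4.05 to 14.5). The fit was tested on simulated data, 4 libraries against 4, in which few genes were changed. It called 46.9% of 1.5-fold, 83.3% of 2-fold and 100% of 4-fold changes, with 13 false calls over 11925 genes. A gene without a call may therefore still have changed.

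The 51 genes and all lists were chosen with earlier results of these data known. Values in every library are given, within each class, for up to 3 called genes a direction of smallest adjusted p whose groups do not overlap and for the gene of highest mean. Other lysosomal lists give the 2 called genes of smallest adjusted p a direction and all MiT/TFE factors, and marker lists the 2 of highest mean. 1 result that this rule selects is not reported here. Promoters are shown for called genes that hold TCACGTG. Copies were sought with the last 400 transcript bases (97% identity over 100 bases).

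Alternatives were pseudocounts of 0.5 and 5, no filter or a mean above 30, upper-quartile or library total scaling, edgeR 4.0.16 and DESeq2 1.42.0 on recovered reads, a replicate block and leaving out each library.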

Additional observations from a re-analysis of the deposited data

Results flagged for a closer look

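In 4 of 102 groups of 4 libraries, 2 for each of the 51 genes, 1 library stood apart from the other 3 (its gap to the nearest one over the whole range passed Dixon's critical value, as chance does in about 5% of groups). Npc1 had 1764.1 normalized counts in co-cultured replicate 1, beside 1539.5, 1524.9 and 1501.0 in the others of that group (gap over range 0.854). Ppt1 had 1429.9 in co-cultured replicate 1, beside 1305.9, 1284.8 and 1286.6 (0.854). Fuca1 had 1810.9 in dimerizer-only replicate 2, beside 1434.6, 1449.1 and 1451.5 (0.955). Cln3 had 860.3 in dimerizer-only replicate 2, beside 706.3, 684.3 and 682.0 (0.864). The calls of Npc1, Ppt1 and Fuca1 were kept in all 17 alternatives, those without these libraries included, and Cln3 was called in none of them.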

How the results depend on the processing

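Of the 20 calls, 16 were kept in all 17 alternatives, no call reversed its direction, and Atp6v1g1, Gusb, Man2b1 and Acp2 lost theirs in some. Atp6ap1, Atp6v1e1, Atp6v1h, Ctns, Glb1 and Lamp2 were called in 1 to 3 alternatives each, always including the replicate block. Library total scaling also called Atp6v1h (adjusted p = 0.0386), Atp6ap1 (0.0472) and Lamp2 (0.0256), DESeq2 on recovered reads Lamp2 (0.03) and Atp6v1e1 (0.0479), and upper-quartile scaling Atp6v1e1 (0.0473). Across the settings that kept every library, other than the replicate block, 7 to 12 genes were higher and 10 to 12 lower. Without single libraries 6 to 9 were higher and 10 to 11 lower. Other lysosomal genes split into 12 higher and 20 lower under library total scaling, beside 9 and 25. When single libraries were left out, 8 to 10 of these genes were higher and 19 to 25 lower. The median of all tested genes moved by less than 0.1 (log2) in every setting.

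With the replicate number as a block, 14 of the 51 genes were higher and 12 lower, beside 9 and 11 without it, and 14 other lysosomal genes were higher, beside 9. The limma adjusted p with the block was 0.00385 for Atp6v1h, 0.019 for Atp6v1e1, 0.021 for Lamp2, 0.0258 for Glb1, 0.0357 for Ctns and 0.0458 for Atp6ap1. The labels give the groups the same replicate numbers, and same-numbered libraries also share the leading number of their column names. What that number marks is not stated, and no shared animal or day is given. Deviations of same-numbered libraries correlated at 0.088 to 0.341, and 8 of 8 libraries correlated best with their own number, so the data and the column names hint at a pairing that the design does not state.

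Atp6v0c, with a mean of 13.2, left the test at a mean above 30. A gene that passed in neither setting was counted as kept even where its sign differed.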

Other observations

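In both groups, replicate 2 often held the highest value of the 51 genes. In the co-cultured group 32 of the 51 genes had their highest value in replicate 2, and in the dimerizer-only group 24 of 51 did. The lowest value lay in replicate 3 for 22 co-cultured and 20 dimerizer-only genes, and in replicate 4 for 23 and 14. The same counts were not made over all tested genes, so the pattern cannot be called particular to the 51. All are values of single libraries and were not tested.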
